A study of Mus musculus with 3 samples.

Results

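Ion channels and cation pumps were compared between 3 kinds of dendritic cell (DC) of mouse spleen: plasmacytoid DC (pDC) and 2 conventional subsets (cDC), CD11b+ and CD8+. The genes were those whose symbol, in the array platform's annotation, belongs to the potassium (Kcn), sodium (Scn), calcium (Cacn), chloride (Clcn), CLIC, TRP, ryanodine and IP3 receptor, Orai, Stim, ATP-gated (P2rx) and Tmem176 families, to the sodium-potassium and calcium pumps (Atp1a, Atp1b, Atp2a, Atp2b, Atp2c), or is Hvcn1. These are 185 of 18193 genes, measured by 399 of 45101 probe sets, a probe set being a group of short probes for 1 transcript. The match by symbol also took in Kcnq1ot1, a long non-coding RNA, the antisense transcripts Kcnmb4os1 and Kcnmb4os2, and Trpc4ap, a protein that binds a TRP channel, none of which is a channel.

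All 3 groups were healthy, naive female C57BL/6 mice aged 6 to 8 weeks, with no treatment, allele or transgene named. T and B cells were removed from splenic mononuclear cells with magnetic beads, and the subsets were then sorted by flow cytometry. Each subset is 1 Affymetrix array of RNA pooled over 5 to 8 mice, amplified from 20 ng, so there is no replicate and no spread between samples. No p-value or standard error is therefore given, and a difference between arrays has no replicate check. The cell type, the mice, the sort and the amplification cannot be told apart, nor can fewer expressing cells and less RNA per cell. Values are probe set signals (intensity on a linear scale, as deposited). The background level was 111, from probe sets of sensory receptor genes, and a gene was called higher where its signal exceeded that level and was at least 2-fold that of the other array. A fold against an array at background is a lower bound, given as "at least".

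Ion gradients in immune cells are built by pumps and spent by channels. The sodium-potassium pump is an alpha subunit that hydrolyses ATP and a beta subunit that carries it to the membrane, while SERCA (Atp2a) and PMCA (Atp2b) pumps move calcium into the endoplasmic reticulum (ER) and out of the cell. When receptors trigger IP3, the IP3 receptors release ER calcium, Stim proteins sense the emptied store and Orai channels open in the plasma membrane, which in lymphocytes and DC feeds calcineurin and NFAT. Potassium channels keep the membrane negative and so sustain calcium entry, and the proton channel Hvcn1 balances the charge moved by the phagocyte NADPH oxidase.

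The promoter stretches below belong to 5 genes with wide differences. They are from RefSeq (GRCm38.p6), where 145 of the 185 genes were matched. Ryr3, Hvcn1 and Kcnk6 were not matched. The first is the 108 bases between the nearest listed starts of Tmem176b and Tmem176a, 2 genes read away from each other, at chr6:48841375-48841482, plus strand. The other stretches are the 250 bases before the start of Atp1b1 (chr1:164458356-164458605, minus strand), of Atp2a1 (chr7:126463074-126463323, minus strand) and of Trpm2 (chr10:77969873-77970122, minus strand). Capitals mark matches, on either strand, to the E-box CANNTG read by E proteins such as Tcf4, and to GAGGAA, a narrower form of the ETS core GGAA. The shorter GGAA was neither marked nor counted, and it also occurs outside the capitals, as between the Tmem176 starts.
Tmem176b-Tmem176a: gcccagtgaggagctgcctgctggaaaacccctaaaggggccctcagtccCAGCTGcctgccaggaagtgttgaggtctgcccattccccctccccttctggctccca
Atp1b1: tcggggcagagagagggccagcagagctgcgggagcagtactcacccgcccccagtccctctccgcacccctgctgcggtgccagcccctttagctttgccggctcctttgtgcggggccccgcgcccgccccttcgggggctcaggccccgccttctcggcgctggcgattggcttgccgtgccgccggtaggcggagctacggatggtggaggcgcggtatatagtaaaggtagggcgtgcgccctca
Atp2a1: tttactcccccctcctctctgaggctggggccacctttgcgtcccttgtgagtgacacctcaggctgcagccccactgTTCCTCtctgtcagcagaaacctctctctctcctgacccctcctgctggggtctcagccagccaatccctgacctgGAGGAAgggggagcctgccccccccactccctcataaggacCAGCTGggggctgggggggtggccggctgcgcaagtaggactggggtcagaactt
Trpm2: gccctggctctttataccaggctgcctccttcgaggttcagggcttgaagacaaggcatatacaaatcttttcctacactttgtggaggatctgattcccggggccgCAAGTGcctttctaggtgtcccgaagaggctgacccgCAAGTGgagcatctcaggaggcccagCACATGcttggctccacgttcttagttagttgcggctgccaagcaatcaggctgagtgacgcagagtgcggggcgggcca
The E-box was matched 1 time between the Tmem176 starts, 1 time at Atp2a1, 3 times at Trpm2 and 0 times at Atp1b1. GAGGAA was matched 2 times at Atp2a1 and 0 times in the other stretches. The 2 motifs overlapped nowhere in these stretches. Over 32851 RefSeq promoters, 250-base windows held the E-box in 66.2% and GAGGAA in 23.3%. In 108-base windows these shares were 36.9% and 10.5%. A match describes the letters only and is not evidence of binding.

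Of the 185 genes, 68 (36.8%) were above background on at least 1 array, against 60.5% of all genes, and 117 were above it on none. The pDC array had 60 above background, CD11b+ cDC 61 and CD8+ cDC 58, with 54 shared by all 3 arrays. A 2-fold difference in at least 1 pair was reached by 37 of the 68, or 54.4%, against 41.2% of the 11014 genes above background. The other 31 stayed within 2-fold in every pair tested. Of those, 14 never reached 2 times background, among them Kcnk13 (147, 148 and 149 in pDC, CD11b+ cDC and CD8+ cDC), Cacna2d2 (169, 171 and 170) and Kcnab3 (177, 173 and 177), so their levels are near the limit of what the arrays resolve. At background on every array were 68 of 84 genes of the potassium channel family and 16 of 24 of the voltage-gated calcium channel family. Kcna3, the voltage-gated potassium channel well known from T cells, read 96.9, 58.1 and 55.5, and the 2 probe sets of P2rx1 and of Ryr2 were at background on every array. In the chloride (Clcn) family only Clcn1 was at background, and in the store-operated family no gene was.

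**Figure D1:**
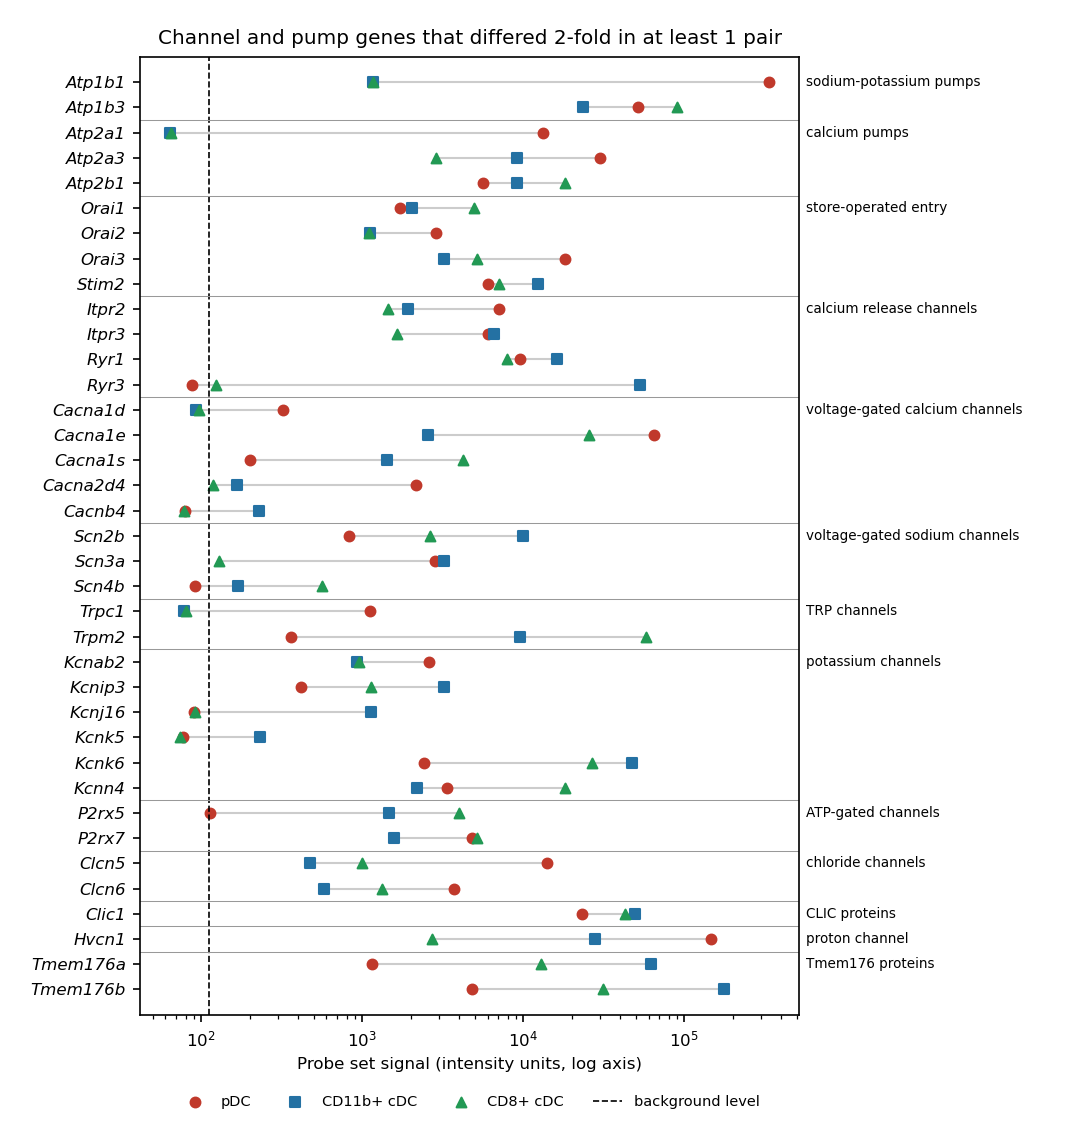
Signal (intensity units, log axis) of the 37 channel and pump genes that differed 2-fold in at least 1 pair, 1 point per array, for pDC (red circles), CD11b+ cDC (blue squares) and CD8+ cDC (green triangles). Grey lines join the lowest and highest array and the dashed line is the background level of 111. Atp1b1 and Atp2a1 stand far to the right in pDC, Ryr3 in CD11b+ cDC and Trpm2 in CD8+ cDC.

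The widest gap in favour of pDC was at a subunit of the sodium-potassium pump. Atp1b1, the beta 1 subunit, gave 336847 in pDC against 1164 in CD11b+ cDC and 1168 in CD8+ cDC. It was high on the pDC array alone, 289-fold above CD11b+ cDC and 288-fold above CD8+ cDC, while both cDC arrays were alike. All 4 probe sets above background, of 5, showed this, and their lowest signal in pDC was 53506 against at most 1416 on the cDC arrays. Atp1b3, the beta 3 subunit, was brightest in CD8+ cDC, within 2-fold of pDC, and gave 51521, 23428 and 90156 in pDC, CD11b+ cDC and CD8+ cDC. It was 3.85-fold higher in CD8+ than CD11b+ cDC and 2.20-fold higher in pDC than CD11b+ cDC, and both calls fell below 2-fold when the arrays were scaled on spike-in controls. Atp1b2, Atp1b4 and Atp1a4 were at background on all arrays.

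Of the 3 calcium pumps of the ER, 2 were higher in pDC, while the plasma membrane pump Atp2b1 was highest in CD8+ cDC. Atp2a1, the SERCA1 pump best known from fast skeletal muscle, gave 13240 in pDC and was at background on both cDC arrays (64.4 and 64.7). That is at least 119-fold higher in pDC, from 1 probe set. Atp2a3, the SERCA3 pump of blood cells, gave 30097 in pDC against 9089 in CD11b+ cDC and 2858 in CD8+ cDC, a graded order. The steps were 3.31-fold and 3.18-fold, and 10.5-fold from end to end, at the brighter probe set. The dimmer probe set read 151, 145 and 158, near background, and showed none of it. Atp2a2, the SERCA2 pump found in nearly all cells, gave 43751, 44935 and 61151 and stayed within 2-fold. Atp2b1, a PMCA pump that expels calcium, gave 5599, 9151 and 18241 in pDC, CD11b+ cDC and CD8+ cDC. CD8+ cDC exceeded pDC 3.26-fold, and its 3 probe sets all placed CD8+ cDC highest. The second of them also passed 2-fold in CD11b+ cDC over pDC (3838 and 1578). Atp2c1, a Golgi pump, gave 4809, 5934 and 6230 and stayed within 2-fold, but 2 of its dimmer probe sets were 2-fold higher in CD8+ cDC than on both other arrays (4309, 3342 and 8667, and 214, 214 and 453). Atp2b4 was at background.

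Both sensors and all 3 Orai channels of store-operated entry were measured, and the Orai genes divided between the subsets. Orai3 gave 18045 in pDC against 3226 in CD11b+ cDC and 5155 in CD8+ cDC, and was 5.59-fold and 3.5-fold higher in pDC. Orai2 gave 2891, 1118 and 1097, which is 2.58-fold and 2.63-fold higher in pDC, and its second probe set passed the rule in both pairs as well (1872, 667 and 763). Orai1, the pore of the classical calcium release-activated current, was instead highest in CD8+ cDC, with 1706 in pDC against 2051 in CD11b+ cDC and 4953 in CD8+ cDC. CD8+ cDC exceeded pDC 2.90-fold and CD11b+ cDC 2.41-fold, but neither reached 2-fold with spike-in scaling. Its second probe set also passed 2-fold in CD11b+ cDC over pDC (1113 and 532). The ER calcium sensor Stim1 was level, at 832, 732 and 721. Stim2, the sensor that answers to small losses of store calcium, gave 6031, 12351 and 7063 and was 2.05-fold higher in CD11b+ cDC than in pDC, a call its second probe set missed.

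Release channels also differed by subset, and Ryr3 had the widest gap of all members at the probe sets used. Ryr3, a ryanodine receptor that releases stored calcium, gave 53428 in CD11b+ cDC, 124 in CD8+ cDC and 87.6, at background, in pDC. It was high in CD11b+ cDC only, at least 481-fold above pDC and 431-fold above CD8+ cDC. Its other probe sets read 3030 and 1498 in CD11b+ cDC and were at background on the other arrays, so the size of the gap depends on the probe set while its direction does not. Ryr1, the ryanodine receptor of skeletal muscle that DC are also known to use, gave 9504 in pDC against 16292 in CD11b+ cDC and 7882 in CD8+ cDC. Only the pair of cDC subsets passed, at 2.07-fold. The IP3 receptor Itpr2 gave 7120, 1932 and 1443, 3.68-fold and 4.93-fold higher in pDC. The next 2 probe sets had the same direction and passed the rule, while another near background (195, 147 and 148) did not. Averaged over all its probe sets, Itpr2 fell below 2-fold in pDC against CD11b+ cDC. Itpr3 gave 6062 in pDC and 6560 in CD11b+ cDC, which are alike, and 1646 in CD8+ cDC. CD8+ cDC was the low array here, 3.68-fold below pDC and 3.99-fold below CD11b+ cDC.

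Voltage-gated calcium channel genes, known mainly from nerve and muscle, included 5 that passed the rule of 8 above background. Among all genes above background, 41.2% passed it in at least 1 pair. Cacna1e, a pore subunit of R-type channels, gave 64782 in pDC against 2561 in CD11b+ cDC and 25736 in CD8+ cDC. CD11b+ cDC was the low array, 25.3-fold below pDC and 10.1-fold below CD8+ cDC, at the 1 of its 2 probe sets above background. Cacna1s, the pore subunit of the skeletal muscle L-type channel, was instead lowest in pDC, with 201 in pDC against 1419 in CD11b+ cDC and 4239 in CD8+ cDC. CD8+ cDC exceeded pDC 21.1-fold and CD11b+ cDC exceeded it 7.08-fold. Like Cacna1e, Cacna1s was higher in CD8+ than CD11b+ cDC, at 2.99-fold, but less than 2-fold with spike-in scaling. Cacna2d4, an accessory subunit, gave 2157 in pDC against 167 in CD11b+ cDC and 119 in CD8+ cDC, and was 12.9-fold and 18.1-fold higher in pDC, with a second probe set in the same direction (1142, 138 and 145). Cacna1d (320 in pDC, at background in both cDC subsets) and the beta subunit Cacnb4 (227 in CD11b+ cDC, at background in the others) passed close to the background level.

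Of 4 sodium channel genes above background, 3 differed in at least 1 pair, as did 41.2% of all genes above background. Scn2b, a beta subunit with an immunoglobulin domain, gave 833 in pDC against 10028 in CD11b+ cDC and 2644 in CD8+ cDC. CD11b+ cDC was 12-fold above pDC and 3.79-fold above CD8+ cDC at this probe set. Scn4b, another beta subunit whose gene lies next to Scn2b, gave 91.7, 169 and 564 and peaked in CD8+ cDC in place of CD11b+ cDC. Scn3a, a pore subunit, gave 2822 in pDC and 3200 in CD11b+ cDC, which are alike, and 130 in CD8+ cDC, 21.7-fold and 24.7-fold lower.

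Among TRP channels, 2 of 9 genes above background differed in at least 1 pair, against 41.2% of all genes. Trpm2, a calcium-permeable channel opened by ADP-ribose and oxidative stress, gave 361 in pDC against 9501 in CD11b+ cDC and 58186 in CD8+ cDC. The arrays form 3 separate levels, with CD8+ cDC 6.12-fold above CD11b+ cDC and 161-fold above pDC, and CD11b+ cDC 26.3-fold above pDC. These come from the 1 of its 2 probe sets that was above background. Trpc1 gave 1121 in pDC and was at background in both cDC subsets, at least 10.1-fold lower. The remaining TRP genes were within 2-fold at the probe sets used. Trpm7, a channel fused to a kinase and important for magnesium, gave 20181, 21960 and 24465, Trpv2 gave 27406, 17668 and 30080, and Trpm4 stayed near background at 178, 249 and 200. Trpc2 gave 492, 455 and 307, while its second probe set (379, 456 and 192) was 2.37-fold lower in CD8+ than CD11b+ cDC. Both are uncertain because 2 further probe sets list Trpc2 together with a neighbouring transcript.

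Potassium channel genes were mostly at background, and 6 of the 16 above background differed, a share near the 41.2% of all genes. Kcnk6, a two-pore leak channel, gave 2426 in pDC against 47124 in CD11b+ cDC and 26903 in CD8+ cDC. Both cDC arrays were high, 19.4-fold and 11.1-fold above pDC. Kcnn4, the calcium-activated channel KCa3.1 of lymphocytes and macrophages, gave 3354 in pDC against 2185 in CD11b+ cDC and 18112 in CD8+ cDC. CD8+ cDC alone was high, 5.4-fold above pDC and 8.29-fold above CD11b+ cDC, and the second probe set (950, 620 and 4623) repeated the order. Kcnj16, an inward rectifier, gave 1131 in CD11b+ cDC and was at background elsewhere, at least 10.2-fold lower, and its second probe set (284 in CD11b+ cDC) also passed. Kcnip3, a calcium-binding partner of voltage-gated potassium channels that also acts in the nucleus as DREAM, gave 419 in pDC against 3205 in CD11b+ cDC and 1137 in CD8+ cDC. It was 7.65-fold and 2.71-fold higher in the cDC subsets than in pDC, the second of which fell below 2-fold with spike-in scaling. Kcnab2, a beta subunit, gave 2596, 933 and 960 and was 2.78-fold and 2.70-fold higher in pDC. Kcnk5 passed near background (233 in CD11b+ cDC, below background in the others). Kcnj11, a pore of ATP-sensitive potassium channels, was level at 5159, 6130 and 5151.

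**Figure D2:**
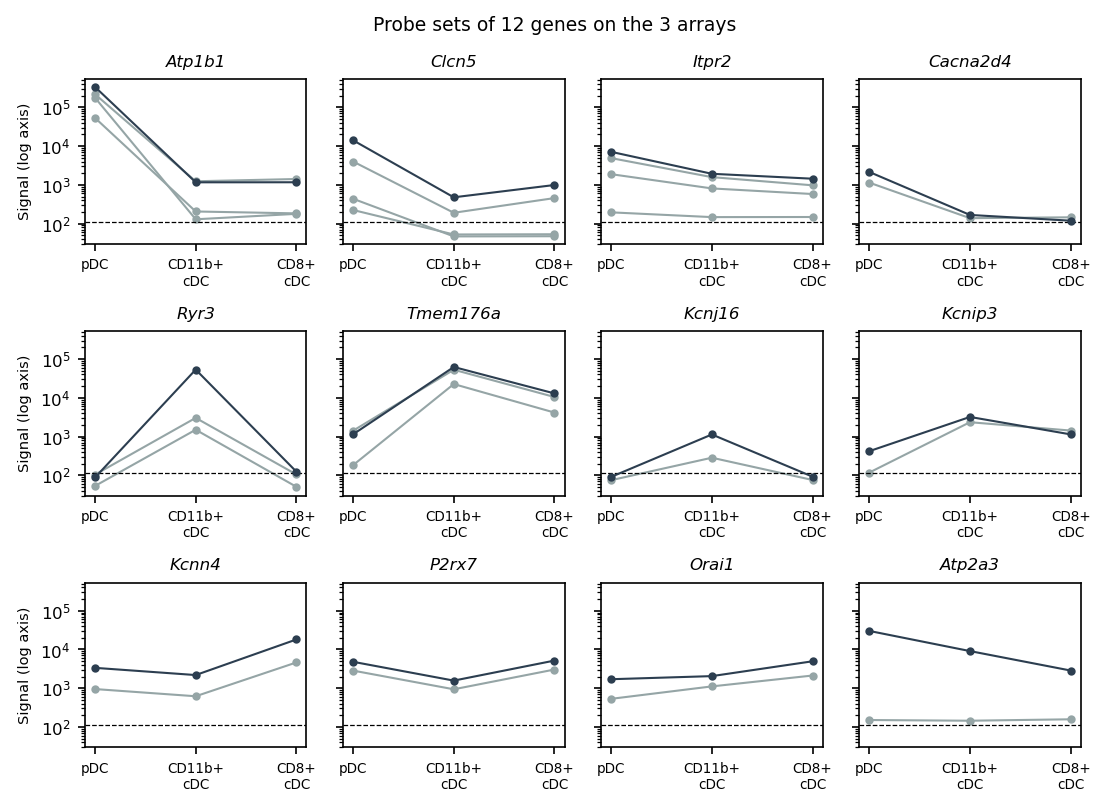
Signal (log axis) on the pDC, CD11b+ cDC and CD8+ cDC arrays of every probe set above background for 12 genes, with the probe set used for the gene in dark and the others in grey; the dashed line is the background level. The probe sets of Atp1b1, Clcn5, Ryr3, Tmem176a, Kcnn4 and P2rx7 keep the same highest or lowest array, whereas the second probe set of Atp2a3 is flat near background.

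Receptor channels for extracellular ATP, a danger signal, were measured for 7 genes, 4 of them above background. P2rx7, which on strong stimulation drives inflammasome activation, gave 4802 in pDC against 1570 in CD11b+ cDC and 5165 in CD8+ cDC. CD11b+ cDC was the low array, 3.06-fold below pDC and 3.29-fold below CD8+ cDC, the latter less than 2-fold with spike-in scaling. A second probe set (2846, 938 and 3034) repeated the order. P2rx4, the adjacent gene in the RefSeq order, gave 30262, 19244 and 22276 and stayed within 2-fold. P2rx5 gave 113 in pDC, just above background, 1462 in CD11b+ cDC and 3977 in CD8+ cDC. It was 13-fold and 35.3-fold higher in the cDC subsets than in pDC.

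Chloride transport genes of the Clcn family were higher in pDC or level, and none of the 6 above background was called lower there. Clcn5, a chloride-proton exchanger of endosomes, gave 14145 in pDC against 477 in CD11b+ cDC and 992 in CD8+ cDC, 29.6-fold and 14.3-fold higher in pDC. The 4 probe sets each placed pDC highest. Clcn6, an exchanger of late endosomes, gave 3695, 575 and 1336 and was 6.42-fold and 2.77-fold higher in pDC. Clcn3 gave 15829, 8556 and 8483, Clcn4 gave 13937, 13749 and 12170, and Clcn7, the lysosomal exchanger, gave 6397, 5255 and 4882, all within 2-fold. Scaled on spike-ins, Clcn3 and Clcn7 passed 2-fold in pDC against CD8+ cDC. Clic1, a protein with soluble and membrane forms found in macrophages, gave 23209, 49078 and 42923, 2.11-fold higher in CD11b+ cDC than in pDC. Clic4 gave 87027, 111014 and 152700 and stayed within 2-fold at the brightest of its 3 probe sets. The other 2 placed pDC lowest too and passed 2-fold against CD8+ cDC (50956 and 108294, and 4594 and 13241).

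The voltage-gated proton channel Hvcn1 formed 3 separate levels, with 145629 in pDC against 27929 in CD11b+ cDC and 2705 in CD8+ cDC, read by 1 probe set. It was 5.21-fold higher in pDC than CD11b+ cDC, 53.8-fold higher in pDC than CD8+ cDC and 10.3-fold higher in CD11b+ than CD8+ cDC. Cybb, the catalytic subunit of the NADPH oxidase whose charge Hvcn1 balances, held the same order at 152140, 55312 and 1911. The oxidase GTPase Rac2 also did (64829, 43200 and 10327), while the cytosolic subunit Ncf4 was lowest in pDC (11106, 46700 and 48570) and Cyba stayed within 2-fold (170596, 276891 and 141261). Of the 6 measured genes of this oxidase list, 3 were higher and 2 lower in pDC than in CD8+ cDC. In that pair 16% of all genes were higher and 14.8% lower. Against CD11b+ cDC 1 was higher and 2 lower, with 15% and 14.3% of all genes. The lower ones in both pairs were Ncf4 and the GTPase Rac1 (49154, 103049 and 107213).

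Tmem176a and Tmem176b, paired genes of small four-span membrane proteins related to the MS4A family, were highest in CD11b+ cDC. Tmem176a gave 1143 in pDC against 62418 in CD11b+ cDC and 12969 in CD8+ cDC, and Tmem176b gave 4828, 176431 and 31396. Both genes formed the same 3 steps, lowest in pDC. CD11b+ cDC was 54.6-fold above pDC and 4.81-fold above CD8+ cDC for Tmem176a, and 36.5-fold and 5.62-fold for Tmem176b. All 3 probe sets of Tmem176a and the 1 of Tmem176b showed this order. The stretch of 108 bases between their nearest listed starts is the first one printed above.

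The 3 pairs of arrays can be counted over all members, although pairs share an array and are not separate evidence. Against CD11b+ cDC, 16 of 67 members above background were higher in pDC (23.9%) and 14 lower (20.9%). Of all 10795 genes tested, 15% were higher and 14.3% lower. Against CD8+ cDC, 16 of 63 were higher in pDC (25.4%) and 12 lower (19.0%), with 16% and 14.8% of all 10820 genes. Between the conventional subsets, 11 of 63 were higher in CD8+ cDC (17.5%) and 13 lower (20.6%), with 9.86% and 10.3% of all 10706 genes. Median differences of the members were near 0 in each pair, at -0.01, -0.02 and 0.01 (log2), and those of all genes were 0.01, 0.00 and 0.01. Without regard to sign, the median difference of members was 0.65, 0.81 and 0.49 against 0.52, 0.54 and 0.39 for all genes. Among genes above background, the share of members called thus lay above that of all genes in both directions of every pair, which is a description with no test. It depends on leaving out genes at background, since 36.8% of members and 60.5% of all genes were above it. Counted whatever their level, 37 of 185 members and 4543 of 18193 genes were called in at least 1 pair, a smaller share of members.

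**Figure D3:**
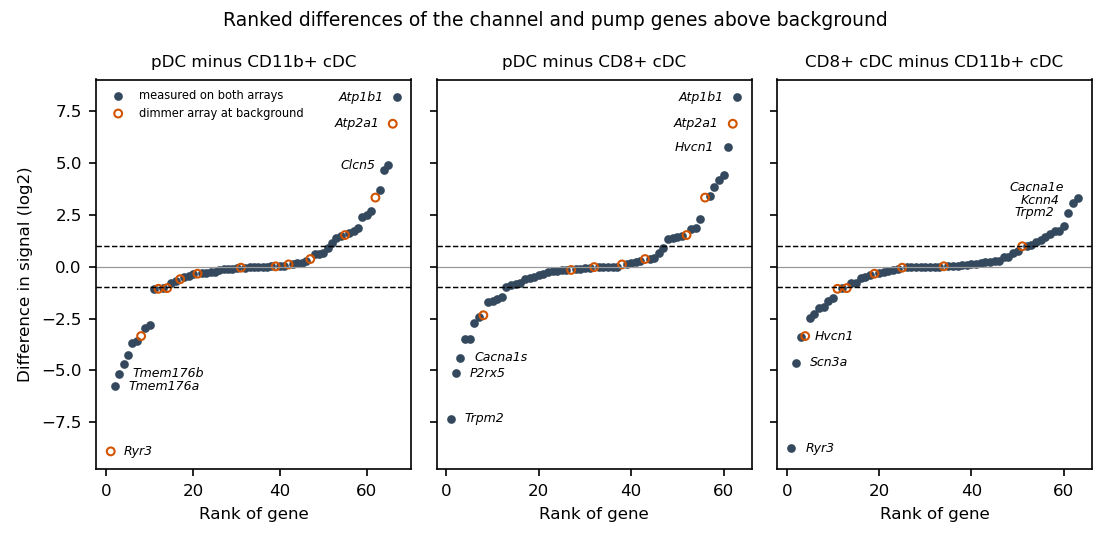
Differences in signal (log2) of the members above background, ranked within each of the 3 pairs; dashed lines mark 2-fold, and open circles are genes whose dimmer array was at background. Members past 2-fold in either direction were 44.8%, 44.4% and 38.1% in the 3 pairs, from left to right. Of all genes, 15%, 16% and 9.86% were higher and 14.3%, 14.8% and 10.3% lower in the same pairs. The tails reach 8.18 for Atp1b1 in pDC minus CD11b+ cDC and -8.91 for Ryr3 in the same pair.

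Genes standing 4-fold or more above both other arrays numbered 6 of 68 members in pDC (8.82%, against 4.28% of all genes), 4 in CD11b+ cDC (5.88%, against 2.03%) and 2 in CD8+ cDC (2.94%, against 2.44%). Those of pDC were Atp1b1, Atp2a1, Clcn5, Cacna2d4, Trpc1 and Hvcn1, those of CD11b+ cDC were Ryr3, Kcnj16, Tmem176a and Tmem176b, and those of CD8+ cDC were Trpm2 and Kcnn4. With a background of 380.5, Trpc1 and Kcnj16 no longer stood 4-fold above both other arrays, and with the mean over probe sets neither Trpc1 nor Trpm2 did. With spike-in scaling, neither Trpm2 nor Kcnn4 stood 4-fold above both other arrays, and the first 2 groups kept all their genes and gained Clcn6 and Orai3, and Kcnip3 and Scn2b.

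The scaling of the arrays sets the balance of calls. The 18 hybridization spike-in probe sets, controls meant to be added in equal amounts to each sample, differed by 0.36, -0.64 and 0.99 (mean log2) between pDC and CD11b+ cDC, pDC and CD8+ cDC, and CD8+ and CD11b+ cDC, the second taken from the first. Scaling on them moved the median of all genes to -0.30, 0.65 and -0.95, so every fold here is relative to the bulk of genes. For the members, CD8+ against CD11b+ cDC changed most, from 11 higher and 13 lower to 3 higher and 26 lower. Higher calls were 45.8% of member calls in that pair as deposited and 10.3% with spike-ins (all genes 49.0% and 7.87%). In pDC against CD8+ cDC they were 57.1% and 66.7% (all genes 51.9% and 77.6%), and in pDC against CD11b+ cDC 53.3% and 48.4% (all genes 51.2% and 34.9%). Cacna1e, Kcnn4 and Trpm2 were the 3 that stayed higher in CD8+ than CD11b+ cDC on both scales, and all 13 lower ones stayed lower.

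**Figure D4:**
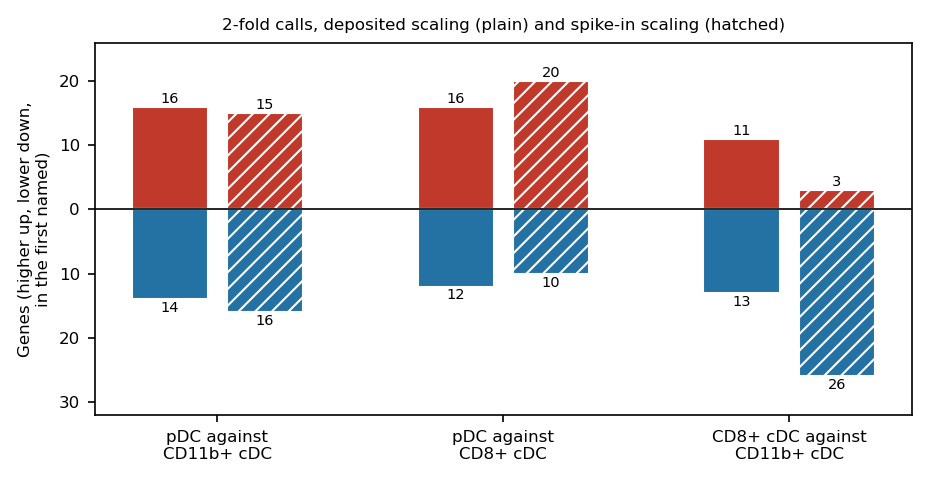
Number of channel and pump genes higher (up) and lower (down) by 2-fold in the first named subset of each pair, under the deposited scaling (plain bars) and under spike-in scaling (hatched bars). The bars of CD8+ against CD11b+ cDC turn from 11 and 13 to 3 and 26, whereas those of the pDC pairs move by at most 4 genes.

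Genes that work beside the channels were counted by the same rule. Of 33 matched genes of store-operated signalling, calcium release and calcineurin, 27 were above background. In pDC against CD11b+ cDC 4 of 26 were higher and 3 lower, shares near those of all genes (15% and 14.3%). Against CD8+ cDC 2 of 26 were higher and 5 lower, with 16% and 14.8% of all genes. Saraf, which shuts off store-operated entry, gave 128768 in pDC against 46983 in CD11b+ cDC and 47057 in CD8+ cDC. The NFAT genes Nfatc2 (6224, 20783 and 14444) and Nfat5 (760, 5878 and 2121) were lower in pDC. Nfatc1 (15005, 14669 and 8900) and Nfatc3 (18353, 30776 and 17271) stayed within 2-fold in every pair. Homer2, a scaffold of calcium channels, was found in CD8+ cDC only, at 4543 against background elsewhere. The catalytic calcineurin genes Ppp3ca and Ppp3cb stayed within 2-fold in every pair, while Ppp3cc, near background, was lower in CD11b+ cDC than in pDC (at least 3-fold) and CD8+ cDC (at least 2.05-fold).

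For mitochondrial and lysosomal calcium, 14 of 15 matched genes were above background. Slc8b1, the mitochondrial sodium-calcium exchanger, gave 3317 in pDC against 1480 in CD11b+ cDC and 40268 in CD8+ cDC, high on the CD8+ array by 12.1-fold and 27.2-fold. The lysosomal channel Mcoln1 (12742, 5186 and 5129) and its relative Mcoln2 (944, and background in both cDC subsets) were higher in pDC, whereas Mcu, the mitochondrial calcium uniporter, was lower there than in CD11b+ cDC (651 and 1946). Of 7 chloride and volume channel genes outside the families above, 3 were higher and 1 lower in pDC than CD11b+ cDC (all genes 15% and 14.3%). The higher ones include Ostm1, the partner of Clcn7, at 56814, 14932 and 19122, and the lower one was Lrrc8c, at 7292, 15626 and 18128. Among the 7 measured partners of ATP-gated channels, 5 were lower and 0 higher in pDC than in CD11b+ cDC (all genes 14.3% lower and 15% higher). They were led by the cytokine gene Il1b (166, 48684 and 23205), and Panx1, an ATP release channel, was lowest in CD8+ cDC (9383, 5114 and 1118). Sgk1, a kinase that regulates ion transport, was low in pDC (536, 21011 and 38490) and the pump regulator Fxyd5 gave 30155, 20322 and 45323.

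Markers of the 3 subsets mostly followed the labels. All 7 pDC markers were highest in pDC, 3 of 4 matched CD11b+ cDC markers in CD11b+ cDC and all 5 matched CD8+ cDC markers in CD8+ cDC. Siglech and Ly6d were above background in pDC only, Itgam in CD11b+ cDC only and Xcr1 in CD8+ cDC only. The exception was Cd4, highest in pDC (37302, 14501 and 110). All 5 markers shared by the cDC subsets were lowest in pDC. Zbtb46 (215, 19657 and 31850) and Batf3 (172, 30189 and 37688) were near background there. Itgax (27138, 152080 and 82543), Flt3 (42851, 56499 and 78033) and H2-Ab1 (502865, 695183 and 765493) were bright on every array. Sirpa (36974, 78989 and 2545), Cd8a (32231, 702 and 203567) and Cadm1 (13334, 1163 and 128249) were also well above background on the pDC array. Markers of other cells were uneven. The T cell genes Cd3d, Cd3e and Cd3g and the B cell genes Cd79a and Pax5 were at background on all arrays, although Cd28 (4830 in pDC), Ms4a1 (11047 and 19147 in the cDC subsets) and Cd79b (10103, 4026 and 381 from pDC to CD8+ cDC) were not. All 5 matched macrophage genes were above background on each array, with summed signals of 97282 in pDC against 255113 in CD11b+ cDC and 112088 in CD8+ cDC. For 5 matched neutrophil genes the sums were 1277, 7604 and 794, and for 4 platelet genes 658, 3671 and 1070. Each of these 3 sums was highest in CD11b+ cDC, as were Ryr3, Kcnj16 and both Tmem176 genes, and their part in those results was not tested. Of 3 matched plasma cell genes, Mzb1 (47739, 249 and 89.2) and Sdc1 were highest in pDC and Jchain in CD11b+ cDC (7870, 14060 and 957). The part of these genes and of Cd79b in the pDC results was likewise not tested. The 3'/5' signal ratio of Actb, a sign of RNA integrity, was 5.71 in pDC against 2.91 in CD11b+ cDC and 4.08 in CD8+ cDC, and that of Gapdh 16.2, 9.68 and 17.6.

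Error within the arrays can be gauged from genes read by more than 1 probe set. For the 28 members with a second probe set above background, the differences of the 2 probe sets varied with an SD of 1.08, 0.86 and 0.97 (log2) in the 3 pairs. In pDC against CD11b+ cDC, the second probe set called 11 of 13 members in the same direction and missed Atp2a3 and Stim2. In pDC against CD8+ cDC it called 11 of 12 and missed Atp2a3. Between the cDC subsets it called 6 of 10 and missed Atp2a3, Kcnip3, Orai1 and Scn2b. It called 0 members in the opposite direction in any pair. For Atp2b1, Atp2c1, Clic4, Orai1 and Trpc2 it passed 2-fold in at least 1 pair where the probe set used did not. These probe sets share 1 RNA sample, so they measure the arrays and not the spread between mice.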

How the data were processed

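Total RNA of 3 sorted cell types was hybridised to 1 array each; per the labels' protocols it was column-purified and amplified into biotinylated cRNA. The deposited values are linear probe set intensities made with MAS5, per the submitters' processing notes, which give no version. The sources used here do not name any further scaling. Yet 1063, 1073 and 1072 probe sets of pDC, CD11b+ cDC and CD8+ cDC exceeded 65535, the limit of a 16-bit scan. The values are therefore not unscaled scanner readings. With Python 3.11.15, pandas and numpy, the 34945 non-control probe sets with 1 annotated gene (platform annotation; all 185 member genes were found by number in the GRCm38.p6 gene table) were reduced to 1 per gene, the brightest by mean log2 over the arrays. Values were floored at 111, the 95th percentile, on the array with the highest one, of 87 probe sets of chemosensory receptors (Olfr, Vmn1r, Vmn2r, Taar, Tas1r and Tas2r genes), 5 of which exceeded it. Log2 differences were taken for all 3 pairs; the size rule was tested on simulated data. Members are named where among the 15 largest calls per direction with the brightest array at 2 times background, where 4-fold above both other arrays, or in a list of well-known channels and pumps. Members and lists were chosen with earlier results of these data known. Alternatives covered scaling, background, probe set choice and fold.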

Additional observations from a re-analysis of the deposited data

How the results depend on the processing

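The counts, medians and named genes were recomputed under 7 alternatives, and no called gene reversed its direction in any of them. Scaling on hybridization spike-ins moved 6 of the 12 summary values beyond the limits used (1.5 times for a count). The median log2 difference of members became -0.34 (pDC less CD11b+ cDC), 0.46 (pDC less CD8+ cDC) and -0.84 (CD8+ less CD11b+ cDC). In the last pair the counts became 3 higher and 26 lower, and 0 genes stood 4-fold above both other arrays in CD8+ cDC. Of 135 gene differences, 11 fell below 2-fold and 14 passed it under this scaling. Averaging all probe sets of a gene gave 8 lower calls for CD8+ against CD11b+ cDC and left 1 gene, Kcnn4, 4-fold above both other arrays in CD8+ cDC, as Trpm2 fell below. It lowered 18 gene differences below 2-fold and raised 1, since dim probe sets enter the mean. A 3-fold rule gave 6 genes higher in CD8+ than CD11b+ cDC and ended 24 gene calls. Leaving out the background level changed 0 of the 135 sides. Quantile normalization also changed 0, but it could change little because the deposited arrays already had nearly the same distribution. Their medians were 97.8, 97.8 and 99.6, and their lowest signals 22.7, 22.8 and 22.8, in pDC, CD11b+ cDC and CD8+ cDC. Leaving out probe sets that can match several transcripts ended both calls of Cacna1d, which then had no probe set above background, and changed 0 of the other 133. A background of 380.5 ended the calls of Scn4b, Cacna1d, Cacnb4 and Kcnk5 in 2 pairs each, and took Trpc1 and Kcnj16 out of the genes 4-fold above both other arrays. No paired analysis was possible because each group has 1 array. Leaving out a replicate was not possible for the same reason. Signals near background limit Cacna1d, Cacnb4, Kcnk5 and Scn4b, whose folds are bounds or small.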

Other observations

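Outside the single-gene probe sets, 2 probe sets list Trpc2 together with a neighbouring transcript. The one listing Xndc1 and Trpc2 gave 1979 in pDC against 1987 in CD11b+ cDC and 1537 in CD8+ cDC, and the other was at background (59.2, 58.9 and 59.6). The non-coding Kcnq1ot1, taken in by its symbol, gave 943, 1028 and 1237, and Trpc4ap gave 6406, 8027 and 9566, both within 2-fold.

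Members next to each other in the RefSeq order of protein-coding genes, among those above background, were Tmem176a and Tmem176b, Scn2b and Scn4b, and P2rx4 and P2rx7. Both Tmem176 genes had the same order of arrays. Scn2b was highest in CD11b+ cDC and Scn4b in CD8+ cDC, and P2rx7 but not P2rx4 passed 2-fold in any pair.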
